A study of Mus musculus with 16 samples.

Results

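The genes described here are 40 mouse genes of the integrated stress response and of the amino acid programme that the transcription factor ATF4 controls. They were picked by symbol, with earlier results of these data known, and all probes that the platform annotation assigns to them were taken. Of the 40 genes, 38 had a probe, among 16593 genes named on the array, and they were covered by 62 probes. Gdf15 and Pycr1 had no probe in the annotation used. A filter on dim probes kept 49 probes of 32 genes, which were tested. Psph, Slc7a1, Slc7a3, Slc1a5, Cars and Yars had only probes below it, at log2 intensities of 5.81 to 7.46 together with the dim probes of other members, and no difference is given for them. The tested genes are 7 transcription factors, 6 stress effectors, 6 enzymes of amino acid and one-carbon synthesis, 5 amino acid transporters and 8 tRNA synthetases.

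The integrated stress response begins when kinases that sense amino acid shortage, misfolded protein in the endoplasmic reticulum, double-stranded RNA or haem shortage phosphorylate the translation factor eIF2alpha. General translation then slows while the Atf4 mRNA is translated more, so the Atf4 transcript alone does not report how much ATF4 protein a cell holds. ATF4 binds DNA together with C/EBP family partners and raises transcription of genes for amino acid synthesis, uptake and charging onto tRNA, and growing tumour cells draw on this programme for their amino acid supply.

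The cells were TUBO, a line from a mammary tumour of a BALB-neuT mouse, a strain that carries an activated rat ErbB2 transgene. All 16 samples were transfected with Lipofectamine and a hairpin RNA at 200 nM. In 8 samples the hairpin was an inhibitor of the microRNA miR-135b (anti-miR-135b), and in the other 8 it was a negative control hairpin, labelled scrambled and called control here. Each arm had 2 samples at 24 h, 3 at 48 h and 3 at 72 h, no untransfected cells are among the samples, and the design asks which transcripts move when miR-135b is silenced. All samples come from 1 cell line, and no label says that replicates were separate cultures, so p-values measure only the spread between these samples.

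The arrays lay on 2 chips. The first held both arms at 48 h and the control at 24 h, and the second held both arms at 72 h and anti-miR-135b at 24 h. The inhibitor difference at 48 h and at 72 h, the control change from 24 to 48 h and the anti-miR-135b change from 24 to 72 h were therefore measured within a chip. The inhibitor cannot be told apart from the chip at 24 h, and within a chip the position of an array follows its arm and time. Any comparison below over all times of an arm crosses the chips, and chip cannot be told apart from time there. Median intensity per array was 281.2 to 346.8, and the number of arrays limits the precision. Epithelial keratin genes were bright (Krt8 averaged log2 13.77 and Krt18 13.48), and 6 of 7 epithelial markers with a probe lay above the filter, Krt19 being dim. Of the leukocyte markers, 1 of 7 lay above it, and Ptprc was dim. That marker, Cd14, averaged log2 14.51 and was brighter than Krt8 and Krt18. Above the filter were also 3 of 10 markers of fibroblasts and endothelium and 2 of 5 of adipocytes.

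The DNA element that ATF4 and C/EBP proteins share, the C/EBP-ATF response element, was looked for as TGATGNAA on either strand in the RefSeq promoter windows of GRCm38.p6, which run from 250 bases before a gene's start to 50 bases after it. Of 34 members with a window, 12 held it, against 4.51% of 27025 genes with a window. The 12 were Aars, Asns, Atf3, Chac1, Gars, Iars, Nupr1, Pycr1, Slc1a4, Trib3, Vldlr and Yars. Ppp1r15a, Atf5, Slc38a2, Slc3a2 and Atf4, which fell more with time under anti-miR-135b than Aars and Gars, had no element in their windows. The 6 windows below were picked from the 12 members that hold it, for genes whose values follow. The transcripts of the first 5 fell with time under anti-miR-135b and Nupr1 had the opposite sign. The windows are those of Chac1 (chr2:119350992-119351291, plus strand), Atf3 (chr1:191183284-191183583, minus strand), Asns (chr6:7693160-7693459, minus strand), Aars (chr8:111033592-111033891, plus strand), Gars (chr6:55037751-55038050, plus strand) and Nupr1 (chr7:126625421-126625720, minus strand). Each is written 5′ to 3′ on the gene's strand with the gene start at base 251, and capitals mark the element (as TTNCATCA where it lies on the opposite strand).
Chac1: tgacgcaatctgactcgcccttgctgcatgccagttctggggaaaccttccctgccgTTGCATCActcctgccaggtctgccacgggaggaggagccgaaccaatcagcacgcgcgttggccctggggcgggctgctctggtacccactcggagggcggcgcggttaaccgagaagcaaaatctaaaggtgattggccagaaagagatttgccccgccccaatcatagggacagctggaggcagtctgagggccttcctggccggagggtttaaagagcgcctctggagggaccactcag
Atf3: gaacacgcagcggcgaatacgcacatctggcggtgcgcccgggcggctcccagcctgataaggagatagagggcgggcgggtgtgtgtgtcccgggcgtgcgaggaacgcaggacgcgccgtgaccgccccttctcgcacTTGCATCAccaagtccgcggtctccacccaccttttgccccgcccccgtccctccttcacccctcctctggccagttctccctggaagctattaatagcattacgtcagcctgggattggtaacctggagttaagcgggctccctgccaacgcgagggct
Asns: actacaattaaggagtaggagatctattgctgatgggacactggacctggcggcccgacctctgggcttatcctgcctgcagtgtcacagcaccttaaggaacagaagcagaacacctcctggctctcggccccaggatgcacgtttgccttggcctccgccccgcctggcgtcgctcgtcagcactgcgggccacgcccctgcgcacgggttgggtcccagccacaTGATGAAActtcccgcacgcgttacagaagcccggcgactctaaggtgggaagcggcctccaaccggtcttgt
Aars: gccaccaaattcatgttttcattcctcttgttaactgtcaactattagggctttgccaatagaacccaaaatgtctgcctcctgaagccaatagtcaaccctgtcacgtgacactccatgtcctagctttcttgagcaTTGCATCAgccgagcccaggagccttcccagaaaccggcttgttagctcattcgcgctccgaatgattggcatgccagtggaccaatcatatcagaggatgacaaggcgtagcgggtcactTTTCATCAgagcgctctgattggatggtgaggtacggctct
Gars: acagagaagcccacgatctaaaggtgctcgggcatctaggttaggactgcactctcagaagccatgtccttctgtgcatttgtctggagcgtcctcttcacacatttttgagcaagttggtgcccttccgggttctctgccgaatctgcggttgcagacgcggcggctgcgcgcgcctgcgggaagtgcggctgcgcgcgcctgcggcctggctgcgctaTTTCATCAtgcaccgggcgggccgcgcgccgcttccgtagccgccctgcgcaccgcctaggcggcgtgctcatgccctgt
Nupr1: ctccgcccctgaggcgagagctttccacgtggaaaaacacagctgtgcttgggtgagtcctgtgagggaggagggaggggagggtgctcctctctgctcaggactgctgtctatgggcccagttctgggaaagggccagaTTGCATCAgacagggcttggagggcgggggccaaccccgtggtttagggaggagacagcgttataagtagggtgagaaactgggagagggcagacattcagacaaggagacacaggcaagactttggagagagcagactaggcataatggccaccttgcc

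The element starts at base 58 of the Chac1 window, 141 of Atf3, 228 of Asns, 139 and 260 of Aars, 221 of Gars and 141 of Nupr1. The match is a description of these letters and no evidence of binding in TUBO cells.

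Under anti-miR-135b, the median of ATF4 pathway transcripts was lower at 72 h than at 24 h in all 5 roles, to unequal extents. The median log2 difference was -0.43 for the transcription factors (2 of 7 higher) and -0.335 for the effectors. For synthesis enzymes, transporters and synthetases it was -0.89, -1.44 and -0.99, and differences between roles were not tested. At the brightest probe of each gene, 29 of 32 members were lower and the median log2 difference was -0.996, against 0.01 over all probes tested. By limma with Benjamini-Hochberg adjustment over 12848 probes, 17 of 49 member probes fell, from 16 genes, and 0 rose. The background was 3.77% of all probes tested called lower and 4.20% called higher, while 34.7% of the member probes were called lower. Because the members were picked with earlier results of these data known, these shares describe the list and are no independent test of it. All 3 samples at 72 h lay below both samples at 24 h for 35 of 49 member probes, against 21.9% of all probes. The count rests on the 2 samples at 24 h: without sample 11 of the 24 h group 10 member probes were called, and without sample 12 only those of Chac1 and Atf3, which is 2, with the lone 24 h sample then assumed to vary like the other groups.

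**Figure D1:**
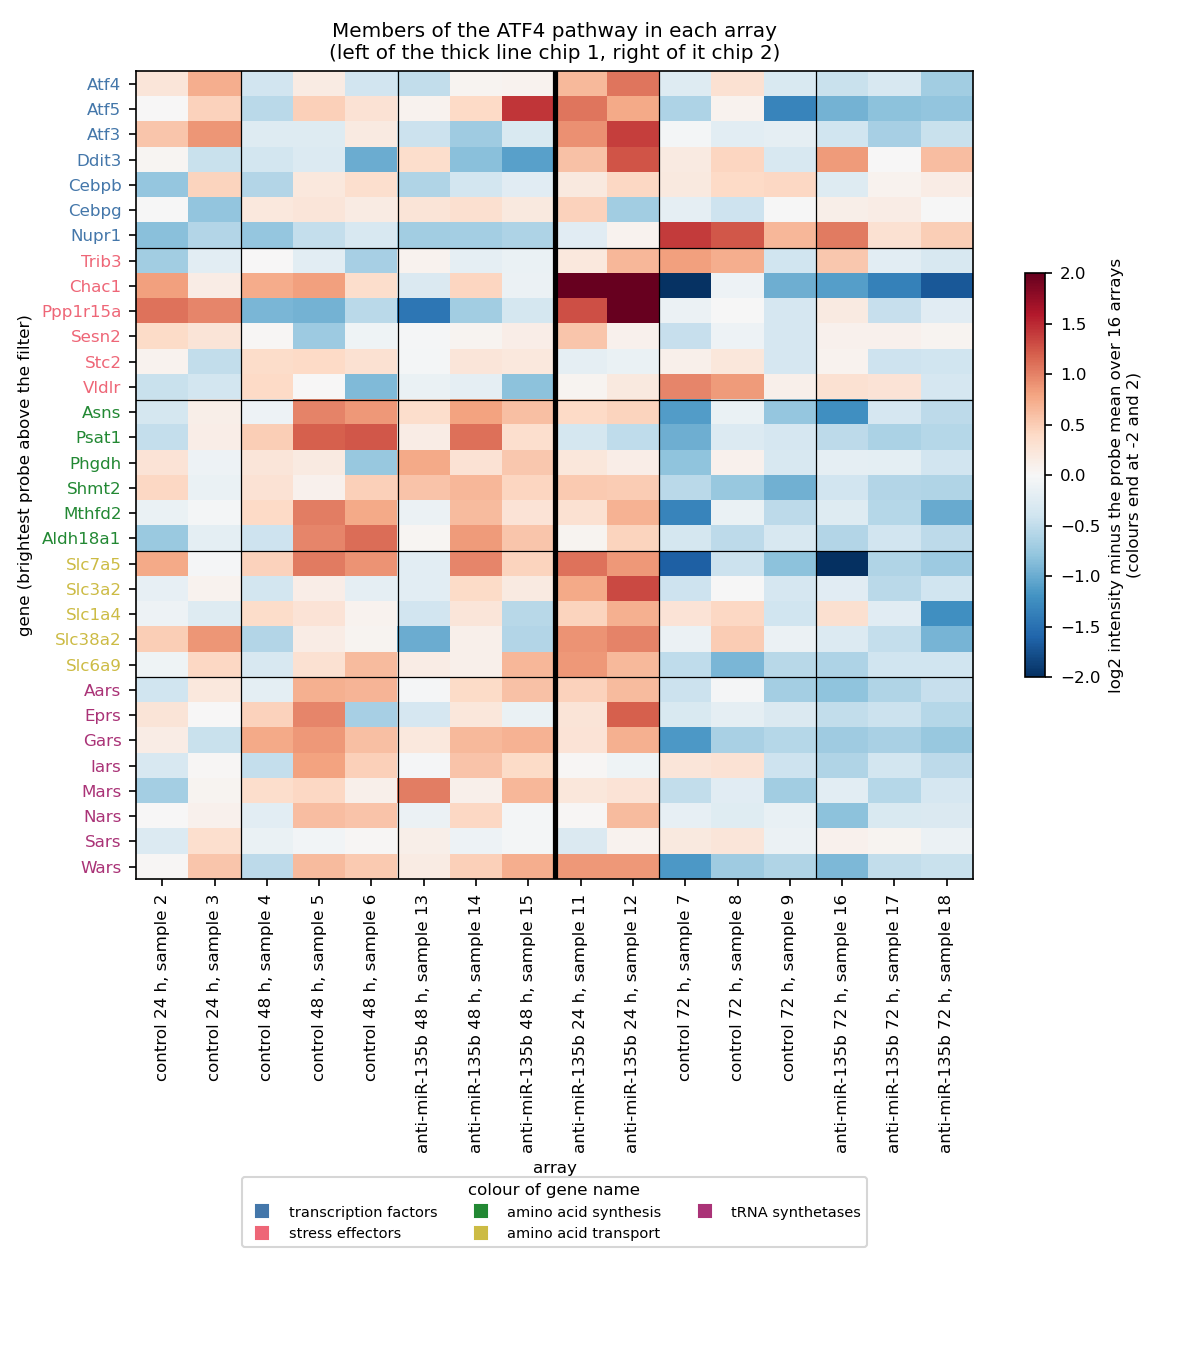
Log2 intensity of the 32 tested members (rows, brightest probe, grouped by role) in each of the 16 arrays (columns, grouped by arm and time, chips parted by the thick line), as the difference from the probe's mean over all arrays. The 2 columns of anti-miR-135b at 24 h are red for most members, and the 72 h columns of both arms are blue for most members. Among the exceptions, Nupr1 lies above its mean in every 72 h column and Ddit3 in the 3 of anti-miR-135b.

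Among the transcription factors, Atf4 itself measured 9.75 and 10.17 under anti-miR-135b at 24 h and 8.65, 8.77 and 8.41 at 72 h. The control had 9.34 and 9.83 at 24 h, 8.71, 9.27 and 8.71 at 48 h and 8.84, 9.40 and 8.79 at 72 h, and anti-miR-135b had 8.61, 9.16 and 9.18 at 48 h. In both arms the 24 h samples were thus the highest, with overlap only between the lower control sample at 24 h and the highest at 72 h. Over all times these values cross the chips. The fall from 24 to 72 h under anti-miR-135b was -1.35 on the log2 scale (SE 0.27, a 2.55-fold difference, limma adjusted p = 0.006).

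Atf5, a close relative of Atf4 that is likewise translated under stress, measured 11.00 and 10.70 under anti-miR-135b at 24 h and 9.00, 9.11 and 9.15 at 72 h. It fell by 1.77 on the log2 scale (SE 0.40, adjusted p = 0.012). One sample at 48 h, at 11.37, was the highest of all 16, so Atf5 did not go down in step with time in that arm. Atf3, a stress-induced repressor downstream of ATF4, measured 8.41 and 8.88 at 24 h and 7.10, 6.84 and 7.06 at 72 h. Atf3 fell by 1.65 on the log2 scale (SE 0.22, adjusted p = 0.00073). In both arms the 24 h samples of Atf3 lay above all later ones, a comparison that crosses the chips. The control values were 8.05 and 8.39 at 24 h, 7.25, 7.25 and 7.68 at 48 h and 7.47, 7.29 and 7.32 at 72 h.

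The other 4 factors did not pass the test between 24 and 72 h. Ddit3, which encodes the death-linked factor CHOP, measured 9.85 and 10.51 at 24 h in the inhibitor arm, 9.61, 8.42 and 8.16 at 48 h and 10.10, 9.27 and 9.87 at 72 h. Its 72 h samples overlapped those at 24 h, and the lowest values of this arm came at 48 h, on the other chip. The Ddit3 difference from 24 to 72 h was -0.43 (SE 0.38, limma adjusted p = 0.56), and its second probe, at -0.39, had the same sign. Cebpb and Cebpg, partners of ATF4, differed by -0.32 and 0.20. Cebpg was dim, the sign of its difference rested on a 24 h sample at 6.55, and without that sample it turned to -0.38.

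Nupr1, a small stress-induced chromatin protein, had the opposite sign. It measured 10.28 and 10.58 at 24 h in the inhibitor arm, 9.81, 9.83 and 9.89 at 48 h and 11.55, 10.80 and 11.01 at 72 h. The control had 9.67 and 9.92 at 24 h, 9.73, 10.02 and 10.18 at 48 h and 11.91, 11.75 and 11.16 at 72 h. In both arms all 72 h samples lay above all earlier ones, but only the 24 h samples of the inhibitor arm were on the same chip. The 0.69 difference from 24 to 72 h within that second chip did not pass the test (SE 0.26, adjusted p = 0.11).

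Among the stress effectors, Chac1, which encodes a glutathione-degrading enzyme and is a sensitive ATF4 target, moved most of all members. Under anti-miR-135b it measured 12.34 and 12.56 at 24 h, 10.00, 10.72 and 10.18 at 48 h and 9.19, 8.94 and 8.60 at 72 h. The control had 11.11 and 10.44 at 24 h, 11.04, 11.11 and 10.65 at 48 h and 8.32, 10.19 and 9.31 at 72 h. The 3 times did not overlap under anti-miR-135b, whereas in the control the 24 and 48 h samples overlapped and those at 72 h were the lowest. The anti-miR-135b samples at 48 h and the control samples at 72 h lay on another chip than the rest of their arm. The fall of 3.54 on the log2 scale under anti-miR-135b (SE 0.39, adjusted p = 0.00012) is an 11.7-fold difference, from a mean of 12.45 ± 0.16 (SD, n = 2) to 8.91 ± 0.29 (SD, n = 3).

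Ppp1r15a, which encodes the GADD34 subunit that takes the phosphate off eIF2alpha again, measured 9.97 and 11.17 at 24 h and 8.85, 8.22 and 8.44 at 72 h under anti-miR-135b. It fell by 2.06 on the log2 scale (SE 0.33, limma adjusted p = 0.0021), with its 24 h samples 1 log2 unit and more above all of those at 72 h. Trib3, a pseudokinase that restrains ATF4 and CHOP, differed by -0.43 (SE 0.34, adjusted p = 0.50), with 8.34 and 8.80 at 24 h overlapping 8.67, 7.92 and 7.82 at 72 h. Sesn2 (an inhibitor of mTORC1 when leucine is short), Stc2 (a secreted stress glycoprotein) and Vldlr (a lipoprotein receptor) had differences of -0.24, -0.09 and -0.06, none of which passed. Of the 4 other probes of Vldlr, 2 had the opposite sign.

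**Figure D2:**
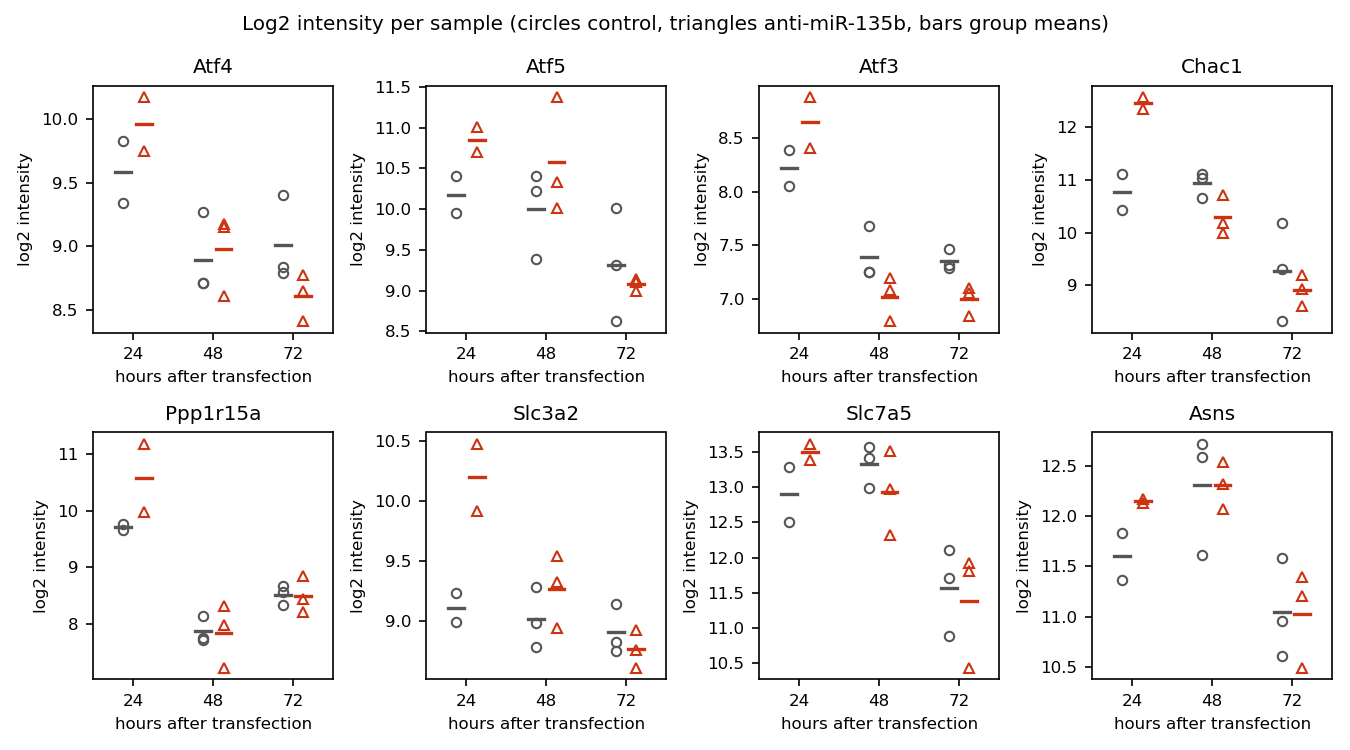
Log2 intensity of 8 members in every sample against hours after transfection (circles, control; triangles, anti-miR-135b; bars, group means; each gene at its brightest probe and on its own scale). Chac1 spans 8.32 to 12.56 with the 2 anti-miR-135b samples at 24 h on top. Asns and Slc7a5 stay high at 48 h and are low at 72 h, measured on the other chip, in both arms.

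In amino acid and one-carbon synthesis, all 6 genes were lower at 72 h than at 24 h under anti-miR-135b and 2 passed at the brightest probe. Shmt2, the mitochondrial enzyme that splits serine into glycine and a one-carbon unit, measured 9.17 and 9.16 at 24 h and 8.26, 8.07 and 8.05 at 72 h, and fell by 1.04 on the log2 scale (SE 0.21, limma adjusted p = 0.0076). Mthfd2, which carries the one-carbon unit on towards formate, measured 8.89 and 9.27 at 24 h and 8.32, 8.01 and 7.57 at 72 h, and fell by 1.11 (log2, SE 0.32, adjusted p = 0.041). For both genes the 2 times did not overlap.

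Asns, asparagine synthetase and a reference target of ATF4, had 3 tested probes with 1 past the threshold. The brightest, ILMN_2643513, measured 12.12 and 12.17 at 24 h and 10.49, 11.39 and 11.20 at 72 h, a difference of -1.12 (SE 0.34, adjusted p = 0.052). The dimmest, ILMN_2636755, measured 9.85 and 10.35 at 24 h and 7.87, 8.07 and 8.46 at 72 h, and fell by 1.97 on the log2 scale (SE 0.39, adjusted p = 0.0061). All 3 Asns probes had the 72 h samples below those at 24 h. Aldh18a1, which makes the precursor of proline, differed by -0.75 (adjusted p = 0.21). The serine synthesis genes Phgdh and Psat1 differed by -0.43 and -0.14, neither past the threshold.

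Amino acid transport had the lowest median of the 5 roles, -1.44, with 4 of 5 genes past the threshold. Slc7a5, the LAT1 carrier of leucine and other large neutral amino acids, measured 13.61 and 13.39 at 24 h and 10.44, 11.92 and 11.81 at 72 h under anti-miR-135b. It fell by 2.11 on the log2 scale (SE 0.43, limma adjusted p = 0.0071). Slc3a2, the heavy chain that anchors Slc7a5 in the membrane, measured 9.92 and 10.48 at 24 h and 8.92, 8.61 and 8.76 at 72 h, and fell by 1.44 (log2, SE 0.24, adjusted p = 0.0028). Both chains of the carrier were thus lower, each without overlap between the times.

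Slc38a2, the SNAT2 carrier of small neutral amino acids, measured 11.57 and 11.67 at 24 h and 10.40, 10.20 and 9.75 at 72 h, and fell by 1.51 (log2, SE 0.31, adjusted p = 0.0082). Its other probes differed by -0.68 and -0.03 and did not pass. Slc6a9, the glycine carrier GLYT1, measured 8.60 and 8.38 at 24 h and 7.12, 7.33 and 7.33 at 72 h, and fell by 1.23 (log2, SE 0.27, adjusted p = 0.011). Slc1a4, an alanine, serine and cysteine carrier, differed by -0.95 without passing (SE 0.35, adjusted p = 0.11).

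Of the tRNA synthetases, which charge tRNAs with their amino acids, 4 of 8 fell. Gars, for glycine, measured 12.80 and 13.24 at 24 h and 11.81, 11.88 and 11.78 at 72 h, a fall of 1.19 on the log2 scale (SE 0.24, limma adjusted p = 0.0072). Wars, for tryptophan, measured 10.33 and 10.32 at 24 h and 8.56, 8.97 and 9.02 at 72 h. It fell by 1.47 on the log2 scale (SE 0.31, adjusted p = 0.0083), and its probe ILMN_3156343 fell by 1.47 as well (SE 0.24, adjusted p = 0.0024).

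Aars, for alanine, measured 11.43 and 11.60 at 24 h and 10.16, 10.36 and 10.50 at 72 h, and fell by 1.17 (log2, SE 0.29, adjusted p = 0.020). Eprs, for glutamate and proline, measured 9.77 and 10.71 at 24 h and 9.01, 9.09 and 8.94 at 72 h, and fell by 1.23 (log2, SE 0.35, adjusted p = 0.041). The second Eprs probe, ILMN_3148398, was also lower, with means of 7.89 at 24 h and 7.44 at 72 h, but did not pass. The Eprs call was the least stable of the 17, past the threshold in 5 of 13 alternative settings, and its value was -0.76 without sample 12. With no background correction Atf3 and Slc6a9 fell less, with -0.97 and -0.74, and still passed. Iars, Mars and Nars, for isoleucine, methionine and asparagine, differed by -0.46, -0.62 and -0.80 without passing. Sars, for serine, was the synthetase with the opposite sign at its brightest probe, at 0.11, where its second probe had -0.59.

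Epithelial markers moved with this comparison. Their mean log2 level over 7 genes was 10.76 to 10.97 under anti-miR-135b at 24 h and 11.09 to 11.44 at 72 h, without overlap. The groups overlapped for leukocyte markers (7.91 to 8.02 and 7.91 to 8.00), for markers of fibroblasts and endothelium (6.76 to 6.91 and 6.72 to 7.20) and for adipocyte markers (6.91 to 7.18 and 6.66 to 7.05). Median array intensity, 311.9 and 346.8 at 24 h and 296.3 to 327.4 at 72 h, overlapped too. Their part in the fall of the members was not tested, and in bulk RNA a change in the makeup of the cells and in RNA per cell cannot be told apart.

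The element TGATGNAA was found among members that fell and among members that did not pass. Of 14 members called with a window, 5 held it (Chac1, Atf3, Asns, Aars and Gars, printed above), and of 15 tested and not called, 5 held it (Nupr1, Iars, Trib3, Slc1a4 and Vldlr). The Nupr1 window, whose transcript had the opposite sign, holds the same letters TTGCATCA as those of Chac1 and Atf3.

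In control cells, the members had both signs between 24 and 48 h. The median was -0.17 for the transcription factors (3 of 7 higher), 0.16 for the effectors (4 of 6), 0.76 for the synthesis enzymes (5 of 6), 0.04 for the transporters (3 of 5) and 0.35 for the synthetases (6 of 8), and differences between roles were not tested. At the brightest probe 21 of 32 were higher at 48 h, with a median of 0.16 against 0.02 over all probes. By limma 1 of 49 member probes passed, Ppp1r15a, against 0.926% of all probes called in either direction. At an unadjusted p under 0.05 there were 7 probes higher (14.3%, background 7.10%) and 5 lower (10.2%, background 5.30%). The groups did not overlap for 7 member probes higher at 48 h (14.3%, against 16.1% of all) and 6 lower (12.2%, against 12.7%), shares near those of all probes. Under scaling to the array median in place of quantile normalization, the median over all probes shifted by 0.30, the member median was 0.76 and 11 probes were called, so the balance of directions depends on the scaling.

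Ppp1r15a measured 9.76 and 9.65 in the control at 24 h, 7.77, 7.73 and 8.14 at 48 h and 8.56, 8.67 and 8.34 at 72 h. Its lowest control values came at 48 h. Under anti-miR-135b the 48 h values of 7.24, 7.98 and 8.33 overlapped those at 72 h, which were 8.85, 8.22 and 8.44. In both arms the 48 and 72 h samples lay on different chips. The control fall from 24 to 48 h, within 1 chip, was -1.82 on the log2 scale (SE 0.33, a 3.54-fold difference, limma adjusted p = 0.012). It no longer passed without control sample 5 (adjusted p = 0.061) or without either of the 24 h samples (adjusted p = 0.11 each).

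Among the other factors and effectors none passed, and the smallest p belonged to genes of both signs. Atf3 differed by -0.83 (SE 0.22, adjusted p = 0.094), Atf4 by -0.69 (SE 0.27, adjusted p = 0.28) and Sesn2 by -0.58 (SE 0.23, adjusted p = 0.29). Stc2 differed by 0.57 (SE 0.23, adjusted p = 0.30), with 8.95 and 8.40 at 24 h and 9.26, 9.29 and 9.20 at 48 h, and Cebpg by 0.60 (SE 0.28, adjusted p = 0.40), with 7.24 and 6.46 and then 7.45, 7.49 and 7.40. The carrier gene Slc38a2 measured 11.17 and 11.56 at 24 h and 10.09, 10.83 and 10.73 at 48 h, a difference of -0.82 (SE 0.31, adjusted p = 0.27). Its probe ILMN_1244123 was lower with overlap (means of 9.68 and 9.23), and ILMN_2721692 had the opposite sign (7.29 and 7.43). At the brightest probes of Atf4, Atf3, Sesn2 and Slc38a2 every 48 h control sample lay below both at 24 h, and for Stc2 and Cebpg above both. Median scaling moved Slc38a2 to -0.075 and Atf4 to -0.15, and without control sample 3 Atf4 was -0.44.

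Of the synthesis enzymes, Phgdh was the member below 0 at its brightest probe, with -0.20, and none of the 6 passed. Psat1, the transaminase of serine synthesis, measured 10.67 and 11.28 at 24 h and 11.64, 12.34 and 12.38 at 48 h in the control, and 10.17, 10.86 and 10.80 at 72 h. Its 48 h samples were all above those at 24 h on the same chip and those at 72 h on the other chip. The difference of 1.15 from 24 to 48 h missed the threshold (SE 0.30, limma adjusted p = 0.090). Gars measured 12.68 and 12.08 at 24 h and 13.29, 13.40 and 13.12 at 48 h, a difference of 0.89 (SE 0.24, adjusted p = 0.11).

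Control Aldh18a1 measured 7.86 and 8.41 at 24 h and 8.18, 9.58 and 9.73 at 48 h, a difference of 1.02 (SE 0.35, adjusted p = 0.21). Its lowest 48 h sample fell between the pair at 24 h, and that sample, number 4, was also the lowest of its group for Asns, Aars and Slc7a5. Without it 3 member probes passed, Ppp1r15a, Psat1 and Aldh18a1. Asns differed by 0.71 at its brightest probe and by -0.35 at ILMN_2636755, neither past the threshold. Chac1, Trib3, Nupr1 and Ddit3 differed by 0.16, 0.16, 0.18 and -0.33, and Ddit3 turned to 0.14 under median scaling.

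**Figure D3:**
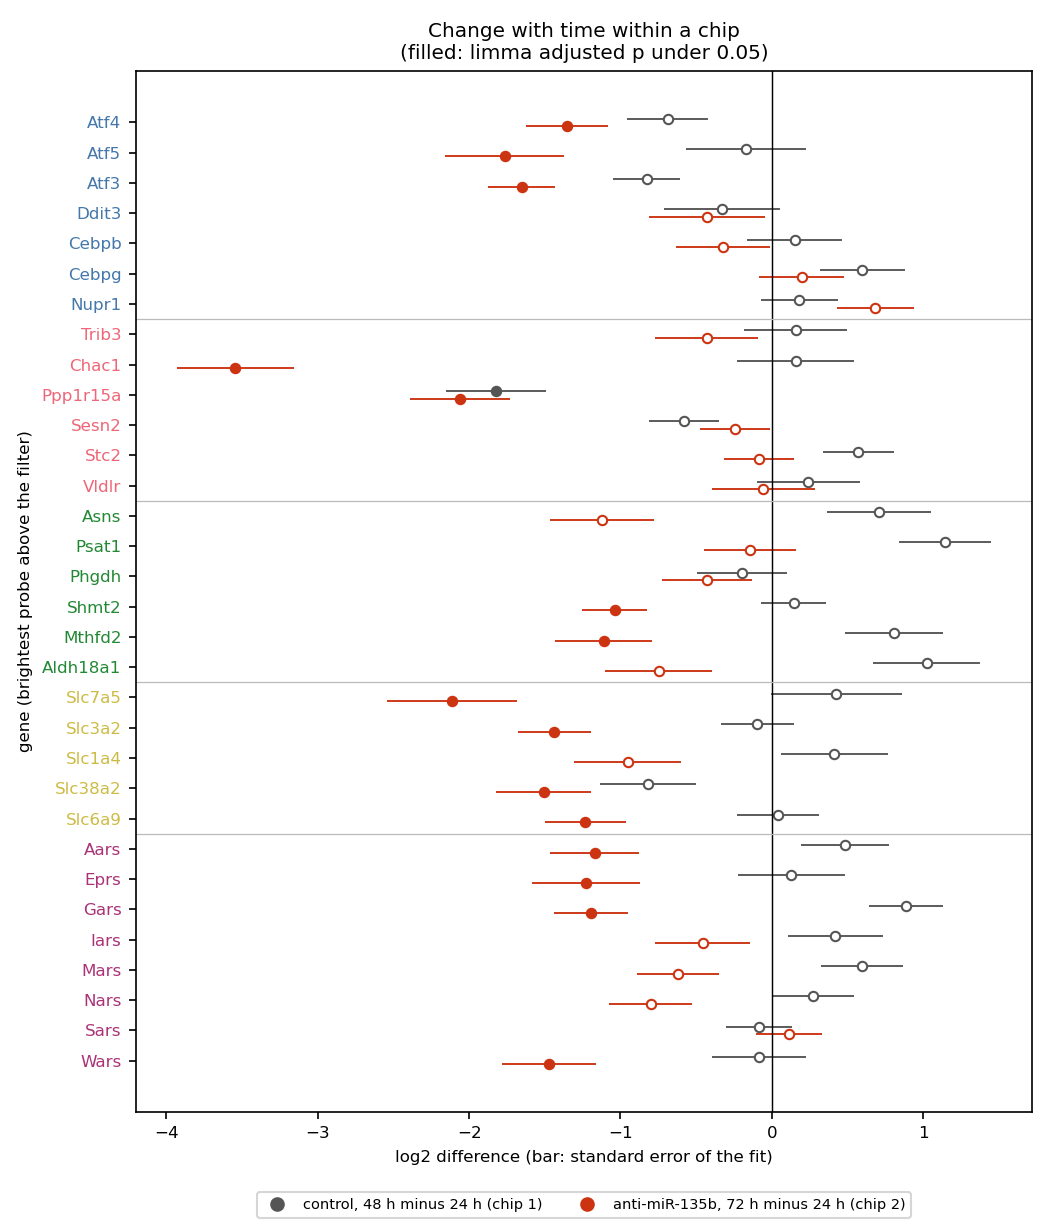
Log2 difference with its standard error for each of the 32 tested members in the 2 time comparisons made within a chip, control 48 h minus 24 h (grey) and anti-miR-135b 72 h minus 24 h (red), filled where the limma adjusted p was under 0.05. The red points lie left of 0 for 29 genes, while the grey points of 5 of 6 synthesis enzymes and 6 of 8 synthetases lie right of it.

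Between anti-miR-135b and control no member difference was past the threshold at 48 or 72 h. Whether miR-135b was silenced in these cells was not tested here. At each time limma called 0 of 49 member probes, against 0% of all probes. At an unadjusted p under 0.05 there were 4 member probes at 48 h (8.16%, background 6.24%) and 2 at 72 h (4.08%, background 7.13%). The member medians were -0.05 at 48 h and -0.16 at 72 h, against -0.01 over all probes at both times. Under median scaling the median over all probes shifted by -0.27 at 48 h, and that of the members was then -0.56.

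With each gene taken at its brightest probe, the smallest p on the higher side at 48 h belonged to Phgdh, Atf5 and Sesn2. Phgdh, which commits glucose carbon to serine, measured 8.19, 8.12 and 7.18 in the control and 8.71, 8.24 and 8.49 under anti-miR-135b. All inhibitor samples were higher, but the closest pair differed little and 1 control sample was far below the others, and the difference of 0.65 did not pass (SE 0.26, adjusted p = 0.78). Atf5 differed by 0.57 with overlapping groups, 9.39, 10.41 and 10.22 in the control and 10.01, 10.33 and 11.37 under anti-miR-135b. Sesn2 differed by 0.32, its control samples being 7.28, 6.52 and 7.18 and the others 7.24, 7.32 and 7.40. These values rest on single samples: Phgdh was 0.33 without control sample 6, Atf5 0.17 without anti-miR-135b sample 15 and Sesn2 0.089 without control sample 5. Median scaling gave 0.025 for Atf5.

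On the lower side at 48 h, Atf3 differed by -0.37 (SE 0.20, limma adjusted p = 0.80), with 7.08, 6.79 and 7.19 under anti-miR-135b below all of the control. Chac1 differed by -0.63 and Psat1, with 11.29, 12.24 and 11.48 under the inhibitor, by -0.45. The groups overlapped for both, and median scaling gave -1.27 and -1.04. Outside the brightest probes, ILMN_2445477 and ILMN_3156343 of Wars and ILMN_2828687 of Mars had no overlap at 48 h, with differences of 0.67, 0.59 and 0.45. Their unadjusted limma p of 0.026, 0.013 and 0.036 were under 0.05, as was that of Phgdh, and none passed after adjustment. In all, the arms did not overlap at 48 h for 6 of 49 member probes (12.2%), against 10.2% of all probes, the others being those of Phgdh, Atf3 and Stc2 (-0.22).

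At 72 h, Slc38a2 measured 10.56, 11.18 and 10.55 in the control and 10.40, 10.20 and 9.75 under anti-miR-135b, a difference of -0.65 (SE 0.28, limma adjusted p = 0.63). The groups did not overlap, though the nearest samples were close, and 1 of its 2 other probes had the opposite sign. Nupr1 differed by -0.49 and Iars by -0.53, the Iars values being 10.57, 10.62 and 9.92 in the control and 9.73, 9.97 and 9.81 under the inhibitor. Ddit3, with control values of 9.44, 9.69 and 8.93, differed by 0.40, and Shmt2, at 8.11, 7.88 and 7.69 against 8.26, 8.07 and 8.05, by 0.23. Both overlapped. Over the alternatives, samples left out included, Slc38a2 ran from -0.82 to -0.42, Nupr1 from -0.71 to -0.20, Iars from -0.76 to -0.29 and Ddit3 from 0.13 to 0.63.

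The arms did not overlap at 72 h for 8 of 49 member probes (16.3%), against 15.1% of all probes. Of these, 7 were lower under anti-miR-135b (14.3%, against 7.06% of all), and the eighth was that of Sesn2. Atf4 itself differed by -0.40 (SE 0.24, limma adjusted p = 0.75), Atf3 by -0.36 and Cebpb by -0.35. The synthetase probes among them were that of Nars (-0.28) and both of Eprs (-0.24 and -0.33), and Slc38a2 was the seventh. At 48 h Atf4 differed by 0.08 with overlap.

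Trib3 measured 8.13, 7.92 and 7.47 in the control and 8.19, 7.95 and 7.99 under anti-miR-135b at 48 h, and 8.96, 8.86 and 7.73 in the control at 72 h. Its differences of 0.21 at 48 h and -0.38 at 72 h did not pass and the groups overlapped. Asns measured 11.62, 12.72 and 12.59 in the control and 12.07, 12.53 and 12.32 under the inhibitor at 48 h, and 10.60, 11.58 and 10.96 in the control at 72 h. Its differences at the brightest probe, 2e-04 and -0.02, were small beside their standard errors of 0.31. The other Asns probes spread to both sides. ILMN_2636755 differed by 0.44 at 48 h and 0.58 at 72 h, and ILMN_3006123 by -0.38 and -0.04, none past the threshold. Ddit3, with 8.90, 8.99 and 8.26 in the control at 48 h, differed by 0.01 there, Nupr1 by -0.13 there, and Chac1 by -0.36 at 72 h. The signs of Atf4, Asns and Ddit3 at 48 h, and of Asns and Chac1 at 72 h, turned when a sample was left out.

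Sesn2 at 72 h measured 6.79, 7.15 and 6.93 in the control and 7.35, 7.34 and 7.32 under anti-miR-135b, a difference of 0.38 without overlap (SE 0.21, adjusted p = 0.73). Sesn2 and Atf3 had the same sign at both times, as did other members such as Chac1, Slc1a4 and Slc38a2 at their brightest probes. The second Sesn2 probe, ILMN_1219984, lay below the filter and was not tested. Its means were 6.85 in the control and 6.98 under anti-miR-135b at 48 h, and 6.72 and 6.44 at 72 h, the opposite sign. Averaged over 48 and 72 h, Sesn2 differed by 0.35 and Atf3 by -0.37, and an exact two-sided permutation test within each time gave p = 0.01 and p = 0.005, the smallest it can give with 400 arrangements. The same exact test gave p = 0.03 for Shmt2 (0.25), p = 0.05 for Slc38a2 (-0.51), p = 0.13 for Phgdh (0.37) and p = 0.135 for Slc1a4 (-0.47), whose arms overlapped at both times. These 6 genes were taken for their small p, so these values support nothing further. By limma over all probes 0 of 49 member probes passed in the average, 4 had an unadjusted p under 0.05 (8.16%, background 7.84%), with adjusted p of 0.58 for Sesn2 and 0.56 for Atf3.

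The inhibitor difference at 72 h minus that at 48 h was past the threshold for 0 of 49 member probes by limma, and 1 had an unadjusted p under 0.05 (2.04%, background 5.50%). That probe was ILMN_2445477 of Wars, with -1.14 (SE 0.39, adjusted p = 0.85). Atf5, Phgdh and Iars had -0.80, -0.56 and -0.57, and Mthfd2, Psat1 and Gars had 0.51, 0.41 and 0.31. Leaving out 1 sample moved Atf5 to -0.40 (sample 15), Phgdh to -0.23 (control sample 6) and Mthfd2 to 0.18 (control sample 7). Median scaling moved Atf5 to -0.096, Psat1 to 1.22 and Gars to 1.19. Iars turned to 0.26 under median scaling, which shifted the median of all probes by 0.36.

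**Figure D4:**
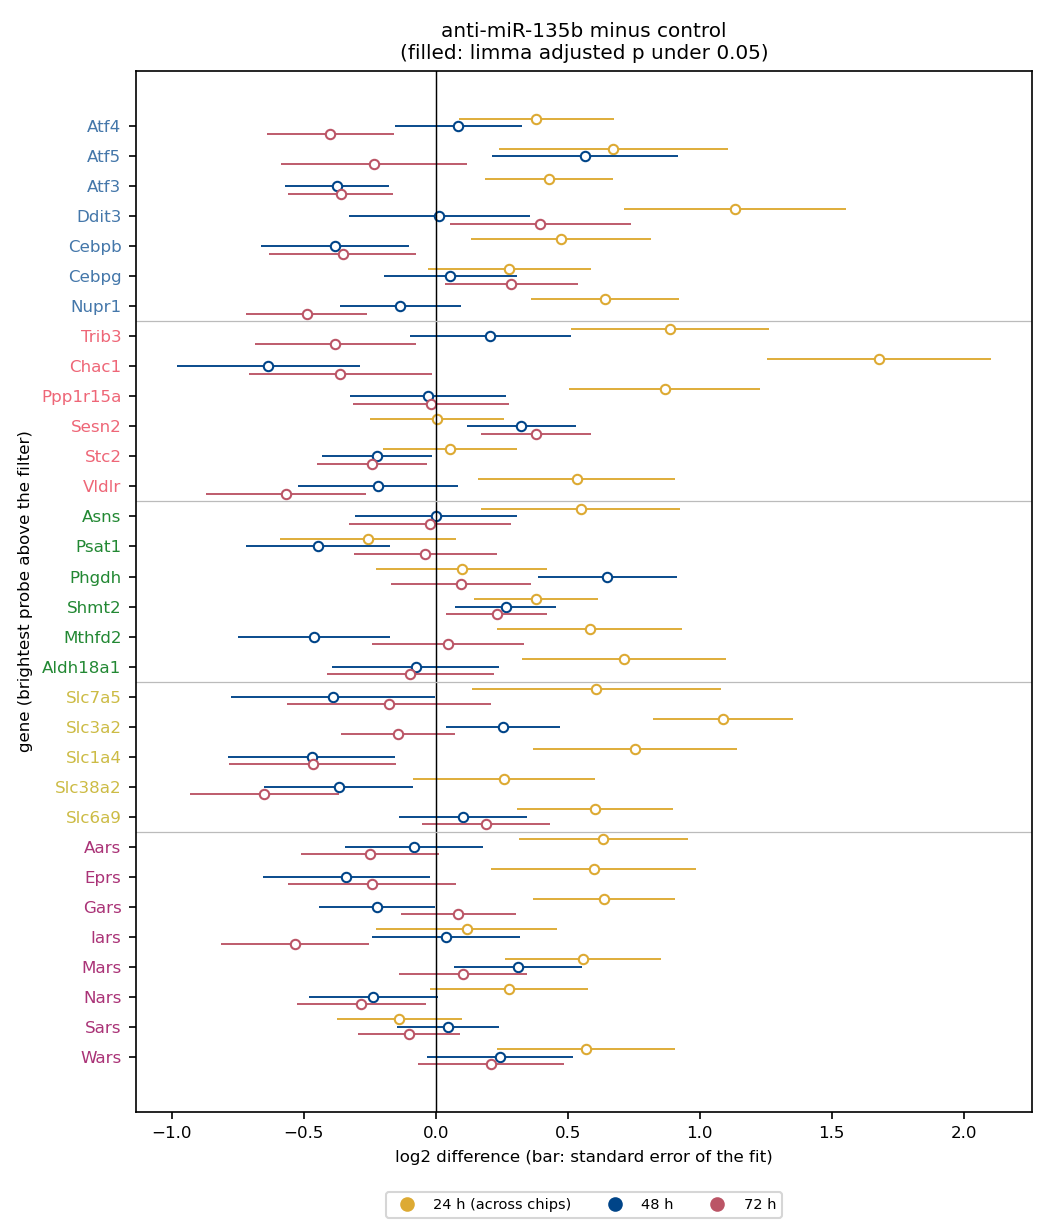
Log2 difference of anti-miR-135b minus control with its standard error for each tested member at 24 h (yellow, measured across chips), 48 h (blue) and 72 h (red), each with open symbols because none had a limma adjusted p under 0.05. The 24 h points lie right of 0 for 30 of 32 genes, and those at 48 and 72 h lie on both sides.

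At 24 h, 30 of 32 members were higher under anti-miR-135b than in the control, with a median of 0.56 against -0.01 over all probes, and limma called 0 of 49 probes. A replicate block by the order of the label numbers, which the labels do not state as a pairing, called 1, Chac1. The background was 0% called, and 8 member probes (16.3%) had an unadjusted p under 0.05 and were higher, against 2.51% of all probes. Both inhibitor samples lay above both controls for 32 of 49 member probes, against 16.4% of all probes. These arms were on different chips. The comparison shares its anti-miR-135b samples with the change from 24 to 72 h and its control samples with the change from 24 to 48 h, so the 3 are not independent.

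Chac1 had the largest of these differences, 1.68 (SE 0.42, limma adjusted p = 1, and 0.039 with the replicate block). Slc3a2 measured 8.99 and 9.23 in the control and 9.92 and 10.48 under anti-miR-135b, a difference of 1.09 (SE 0.26, adjusted p = 0.97). Ddit3 measured 9.29 and 8.80 in the control, 1.13 below the inhibitor samples (SE 0.42), and its second probe had 0.68. For Chac1, Slc3a2 and Ddit3 both inhibitor samples were above both controls. Trib3 differed by 0.89 with control samples of 7.43 and 7.93, and Ppp1r15a by 0.87.

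Psat1 and Sars were the 2 members lower at 24 h, by -0.26 and -0.14. Psat1 measured 10.67 and 11.28 in the control and 10.80 and 10.64 under anti-miR-135b, and Sars measured 10.32 and 10.92 against 10.30 and 10.66. Both overlapped, and both turned positive under median scaling and without control sample 3. Sesn2 and Stc2 differed by 0.006 and 0.05. The Sesn2 values were 7.64 and 7.51 in the control and 7.81 and 7.35 under the inhibitor.

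Comparing all times in each arm crosses the chips, and since chip cannot be told apart from time there, the following values are given with no test. From 48 to 72 h, 23 of 32 members were lower in the control (median -0.39) and 24 of 32 under anti-miR-135b (median -0.53). All 72 h samples lay below all at 48 h for 15 of 49 member probes in the control, against 12.4% of all probes, and for 26 of 49 under anti-miR-135b, against 11.4%. Slc7a5 measured 12.98, 13.57 and 13.42 at 48 h and 10.89, 12.10 and 11.71 at 72 h in the control, and 12.32, 13.51 and 12.97 at 48 h under the inhibitor. Slc7a5, Gars, Psat1, Asns, Shmt2, Wars and Chac1 were each more than 1 log2 unit lower at 72 than at 48 h in both arms.

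From 24 to 72 h the control had 21 of 32 members lower, with a median of -0.37, where anti-miR-135b within its chip had 29 and -0.996. Non-overlapping lower values were found for 16 of 49 member probes in the control, against 17.9% of all probes. Under anti-miR-135b from 24 to 48 h, 21 of 32 were lower (median -0.34), without overlap for 17 of 49 probes against 16.5% of all, with Ppp1r15a at -2.72 and Chac1 at -2.16. The mean over the members was 10.21 and 10.39 in the anti-miR-135b samples at 24 h, 9.72 and 9.83 in the control at 24 h, 9.68 to 10.08 at 48 h in both arms and 9.30 to 9.74 at 72 h in both arms. Both anti-miR-135b samples at 24 h thus stood above all others.

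Wider lists were described for the change under anti-miR-135b from 24 to 72 h, where 3.77% of all probes were called lower. In a list of 8 genes, 1 call says little beside that share. Of 17 further ATF4 or CHOP targets tested, 2 fell (median -0.27): Slc7a11, the cystine carrier (log2 difference -4.94, limma adjusted p = 3.5e-05), and Sqstm1, the autophagy adaptor p62 (-2.54, adjusted p = 0.00075). Both also fell in the control from 24 to 48 h, with -3.19 (adjusted p = 0.0023) and -2.25 (adjusted p = 0.0036). Both are known targets of the antioxidant factor NRF2 as well. Of 8 other cytosolic tRNA synthetases, 1 fell, Rars, by 1.77 on the log2 scale (adjusted p = 0.0044).

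Of 8 genes for eIF2alpha kinases, phosphatases and translation control, 1 fell, the double-stranded RNA kinase gene Eif2ak2, by 2.20 on the log2 scale (limma adjusted p = 0.0049). Eif2ak3, the kinase that senses endoplasmic reticulum stress, differed by -0.52 without passing. Of 10 mitochondrial tRNA synthetases and 9 other amino acid transporters, 0 passed, with medians of 0.14 and -0.004. Of 12 genes of the ATF6 and XBP1 arm of the unfolded protein response 0 passed, with medians of -0.31 here and -0.48 in the control from 24 to 48 h. Its chaperone gene Hspa5 differed by -0.91 (SE 0.29, adjusted p = 0.058) and -0.96 (SE 0.29, adjusted p = 0.14).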

How the data were processed

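Biotin-labelled cRNA of the 16 samples was hybridized to Illumina mouse BeadChips, 1 array per sample. The deposited table holds non-normalized intensity values of 25697 probes, made with GenomeStudio (no version named) per the submitters' processing notes. A second deposited table holds the authors' normalized log2 values (method: not given in the sources used here) and served as an alternative. Each of its 16 columns matched its own sample's intensities in rank (Spearman's rho of at least 0.999), and column medians were 8.24 to 8.26. Detection p-values and control probes were not used here.

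With limma 3.58.1 under R 4.3.3, normexp with an offset of 50 corrected the background, and arrays were quantile normalized on the log2 scale. The offset narrows differences of dim probes. Probes with a mean above the median of all probes (log2 7.1) were kept, which left 12848. For each probe lmFit and eBayes fitted 6 group means over all 16 arrays (10 residual and 7.76 prior degrees of freedom) and 7 contrasts. P-values are two-sided and adjusted by Benjamini-Hochberg over all 12848 probes within a contrast, with a threshold of 0.05. A gene is taken at its brightest kept probe, and no probes were averaged. The fit was tested on simulated data first. Gene names are from the platform annotation (23978 probes with 1 symbol, 1719 with none), which names Mars as Mars1. Promoter windows are from RefSeq, GRCm38.p6.

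The members, the wider lists and the rule for naming genes were chosen with earlier results of these data known. The rule names members past the threshold in a contrast and the 3 members per direction with the smallest p in each, and gives the values of Chac1, Ddit3, Trib3, Asns, Atf4, Atf3, Sesn2 and Nupr1 in every sample. Probes and genes named for groups that did not overlap were added after their values were seen. Control and inhibitor samples share no label numbers. Alternatives were no background correction, another offset, median scaling, the deposited log2 table, no filter and a stricter one, array weights, a fit on the groups compared only, a replicate block and leaving out each sample.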

Additional observations from a re-analysis of the deposited data

Results flagged for a closer look

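The inhibitor difference of 3 members had 1 sign in every sample at 24 h, where the arms lie on different chips, and the opposite sign in every sample at a later time. The inhibitor cannot be told apart from the chip at 24 h, and the difference between the times was not tested. For Atf3, whose inhibitor samples were above the control at 24 h and below it later, the inhibitor difference at 48 h minus that at 24 h was -0.80 on the log2 scale, and that at 72 h minus 24 h was -0.79. For Slc38a2 the value at 72 h minus that at 24 h was -0.91 at its brightest probe. For Eprs it was -0.84 at the brightest probe and -0.80 at its second probe. At 24 h the lowest inhibitor sample lay only 0.024 above the highest control for Atf3, 0.010 for Slc38a2, and 0.0051 and 0.098 for the probes of Eprs. The groups hold only 2 or 3 samples, and 427 of 12848 probes (3.32%) showed such a reversal, against 4 of 49 member probes (8.16%). Both Eprs probes are among the 4. What part small groups or the chip have in these reversals was not tested.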

How the results depend on the processing

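Of 1117 recomputed values of named genes, 1029 kept their sign and their side of the threshold, 41 were no longer past it, 16 were newly past it and 31 changed sign. Under anti-miR-135b from 24 to 72 h, the member median of -0.996 was -0.73 with no background correction and -0.71 in the authors' deposited log2 table, and 11 member probes were called under median scaling. Leaving out 1 sample gave 2 to 16 called probes. Chac1 passed in 13 of 13 settings and Atf3 in 12 of 12, being too dim for the stricter filter. In the control from 24 to 48 h, median scaling gave a member median of 0.76 and 11 called probes, array weights gave 6, and leaving out 1 sample gave 0 to 3. Median scaling also gave member medians of -0.56 for the inhibitor at 48 h and 0.54 for its difference between 72 and 48 h. It turned the sign of Psat1 (0.034) and Sars (0.15) at 24 h, Atf4 (-0.33), Ddit3 (-0.41) and Asns (-0.63) for the inhibitor at 48 h, Asns (0.21) at 72 h, Iars (0.26) in the difference between 72 and 48 h and Ddit3 (0.14) in the control from 24 to 48 h, and it shifted the median of all probes by 0.13 at 24 h. Array weights turned Atf4 (-0.13), Ddit3 (-0.38) and Asns (-0.28) at 48 h, and no background correction turned Asns there (-0.0021). Leaving out 1 sample turned signs in these ranges: for the inhibitor at 48 h, Atf4 -0.013 to 0.27, Ddit3 -0.43 to 0.30 and Asns -0.35 to 0.21, at 72 h, Chac1 -0.84 to 0.096 and Asns -0.24 to 0.25, in the control from 24 to 48 h, Trib3 -0.087 to 0.40 and Chac1 -0.18 to 0.50, at 24 h, Psat1 -0.56 to 0.047 and Sars -0.44 to 0.16, and under anti-miR-135b from 24 to 72 h, Sars -0.063 to 0.29 and Cebpg -0.38 to 0.78. The cause was not tested.

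A replicate block by order of the label numbers gave 1 called member probe at 24 h, Chac1 (1.68, limma adjusted p = 0.039), and changed no other count of calls by over 1.5 times. The arms share no numbers. Deviations of the samples paired by order correlated at 0.08 to 0.56, over 0.1 in 7 of 8 pairs. These pairs are not independent: in a group of 2 the deviations mirror each other, so both pairs at 24 h had the same 0.101. Of 12 samples at 48 and 72 h, 9 were most like the other arm's sample of the same order, a hint from the data and not the design. Members near the filter, such as Cebpg and Sesn2, lie close to background, where true differences are compressed.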
